A study of Arabidopsis thaliana with 82 samples.

Results

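The cyclins, cyclin-dependent kinases (CDKs) and CDK inhibitors of Arabidopsis thaliana were followed through hypocotyl grafting. The set holds 40 genes, chosen by gene identifier from the 27416 genes of the library-normalised table: 10 D-type cyclins (CYCD), 7 A-type cyclins (CYCA), 9 B-type cyclins (CYCB), 4 B-type CDKs (CDKB), CDKA-1, 7 KIP-related proteins (KRP1 to KRP7), SIAMESE (SIM) and SIAMESE-RELATED 1 (SMR1). In all, 39 of the 40 passed the filter on low values, a level of at least 1 in at least 2 libraries. The exception was CYCD7-1 (AT5G02110), a D-type cyclin, which was listed at 0 in 76 of 82 libraries and reached 0.243 at most. A hyphen stands here where Arabidopsis gene names have a semicolon. The B-type cyclins and CDKBs are called the mitotic members, the D-type cyclins the G1 members, and the KRPs with SIM and SMR1 the inhibitors.

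Wild-type seedlings 7 days old of the Col-0 ecotype, grown under short days without sucrose, were used for every group. A transverse cut was made through the hypocotyl, and the cut pieces of 2 different plants were joined (grafted) or left apart (separated). The hypocotyl tissue above the cut (top) or below it (bottom) was taken at 6, 12, 24, 48, 72, 120, 168 and 240 h, and intact hypocotyls at those times and at 0 h. All plants, the uncut intact ones included, had lost 1 cotyledon. Separated bottoms carried no shoot and separated tops no root. There were 82 libraries in 41 groups of 2, which the labels call independent biological replicates.

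In plants, a cyclin binds a CDK and sets when and on what it acts. D-type cyclins pair mainly with CDKA-1 and answer to hormones and sugar, leading to phosphorylation of the retinoblastoma-related protein and entry into S phase. A-type cyclins act from S phase into mitosis, and B-type cyclins and the plant-specific CDKBs act from G2 into mitosis, where MYB3R transcription factors bind a short promoter element, the MSA element. KRPs, SIM and SMRs bind cyclin-CDK complexes and restrain them, and SIM and SMR1 are known for promoting endoreduplication, in which DNA is copied without division. In a hypocotyl, whose cells mostly no longer divide, the cambium and dividing pericycle or wound tissue are the usual places of division.

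Levels are the deposited library-normalised values, multiplied by 1 constant so that the median library sums to 1000000. A level of 1 stands for 5.78 to 22.0 reads, estimated in 72 of 82 libraries, whose estimated depth was 7.56 to 20.2 M reads (median 12.5 M, with M for 1000000). Of the 5 conditions, separated tops had the highest median depth (15.5 M) and separated bottoms the lowest (10.3 M). The sums of the deposited values ran from 10.1 M to 19.7 M over the libraries. They were 10.3 to 12.3 M in separated tops and 14.3 to 19.7 M in separated bottoms. Levels are thus not shares of each library's own total. Replicates correlated at 0.971 to 0.993 (Pearson's r over genes). Differences are on the log2(level + 1) scale, so they understate the change of low genes, and are called at a limma adjusted p (Benjamini-Hochberg, over 20766 genes) under 0.05. The times were grouped as 6 to 24 h (6 libraries a side), 48 and 72 h (4 a side) and 120 to 240 h (6 a side), always as differences within a time. In such tissue samples, fewer cells expressing a gene and less RNA of it per cell cannot be told apart.

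The mitotic members moved together, and their level differed with the cut, the side of the cut and the join. Their summed level was 33.7 and 26.4 in the 2 intact libraries at 0 h. At 48 h it was 390.1 and 391 in grafted tops, 229.7 and 232 in grafted bottoms and 363 and 413 in separated tops, against 26.9 and 27.4 in separated bottoms and 25.9 and 27 in intact plants. Separated bottoms and intact plants thus lay together at 48 h, and the other groups lay far above both.

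**Figure D1:**
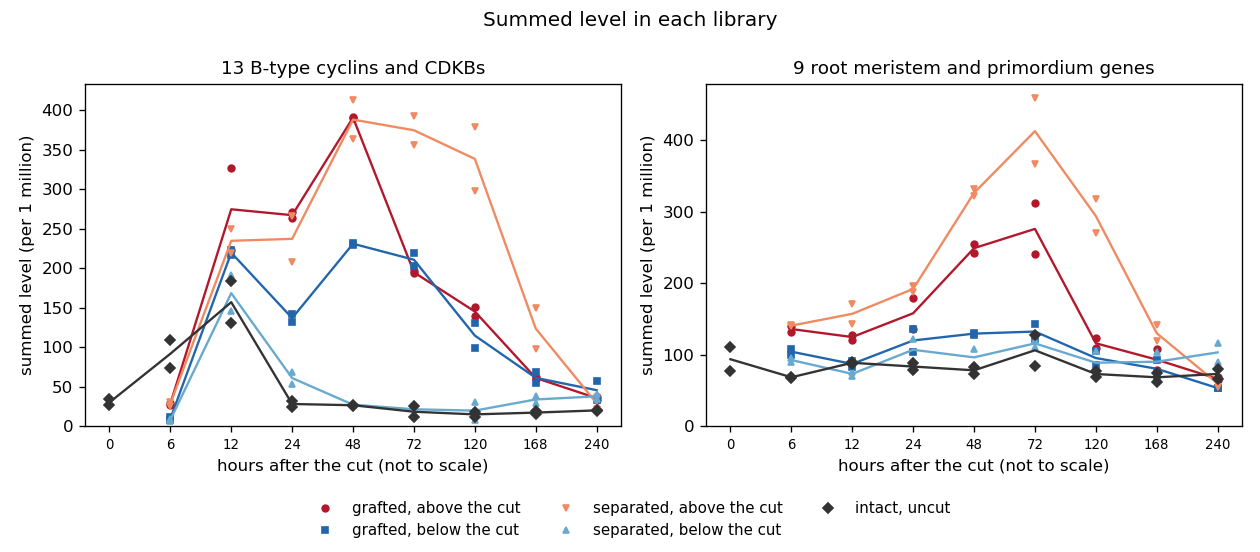
Summed level of the 13 B-type cyclins and CDKBs (left) and of 9 root meristem and primordium genes (right), against hours after the cut. Levels are scaled so that the median library, not each library, sums to 1000000. Points are libraries, and lines join the means of 2. At 48 h the mitotic sum was 390.1 and 391 in grafted tops and 26.9 and 27.4 in separated bottoms, and at 72 h the root sum was 367 and 458 in separated tops and 84.2 and 128 in intact plants.

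At 6 h the mitotic sum was 29.8 and 27.2 in grafted tops and 25.3 and 31.1 in separated tops, close to that of intact plants at 0 h, and 11.4 and 7.28 in grafted bottoms and 6.8 and 8.98 in separated bottoms, below it. Intact plants had 74 and 109 at 6 h, above their own 0 h level. At that time 11 of 13 were called lower than in intact plants in grafted tops, 12 in grafted bottoms, 11 in separated tops and 12 in separated bottoms, while 22.3%, 16.1%, 23.6% and 19.9% of all genes tested were lower. At 12 h all 5 groups had high sums, 222 and 326 in grafted tops, 216 and 223 in grafted bottoms, 219 and 249.7 in separated tops, 146 and 191 in separated bottoms and 130.0 and 184 in intact plants. Called higher than intact at 12 h were 7 of 13 in grafted tops (all genes 22.6%), 5 in grafted bottoms (14.9%), 6 in separated tops (22.7%) and 1 in separated bottoms (18.8%), where 1 was lower. The uncut plants shared the 12 h rise: in intact plants 11 of 13 members were higher in both 12 h libraries than in all 4 libraries of 0 and 24 h, 11 of 13 were so in both 6 h libraries, and 12 of 13 had their highest intact mean at 12 h. These single times have 2 libraries a side. How many of all genes exceeded 0 and 24 h in this way in intact plants was not counted. The 6 and 12 h samples fall at another time of day than 0 h and all later times. Time of day and hours since the start cannot be told apart in the intact rise.

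From 24 h the groups parted. At 24 h all 13 mitotic members were called higher than intact in grafted tops, grafted bottoms and separated tops, where 24.6%, 15.7% and 25.9% of all genes were higher, and 6 of 13 in separated bottoms, where 17.1% were. All 13 were called higher in grafted tops, grafted bottoms and separated tops also at 48, 72 and 120 h. At 240 h 3 of 13 were still higher in grafted tops (all genes 15.9%), 4 in grafted bottoms (15.8%), 2 in separated tops (20.2%) and 2 in separated bottoms (23.1%). The highest mean fell at 48 h for all 13 in grafted tops, at 12 to 72 h in grafted bottoms, at 48 to 120 h in separated tops and at 12 h for all 13 in separated bottoms.

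Over 48 and 72 h, 26 of 39 members were called higher and 4 lower in grafted tops against intact plants, beside 31.5% and 26.8% of all genes. In grafted bottoms 24 of 39 members were called higher and 8 lower (20.3% and 26.5% of all genes), in separated tops 27 of 39 members were called higher and 6 lower (40.2% and 27.1%), and in separated bottoms 5 of 39 members were called higher and 18 lower (27.8% and 28.5%). All 13 mitotic members were at least 2-fold higher in grafted tops, grafted bottoms and separated tops, against 13.6%, 10.8% and 18.3% of all genes, with median log2 differences of 3.06, 2.78 and 3.52 beside 0.04, -0.07 and 0.13 over all genes. In separated bottoms 1 mitotic member was higher and 2 were lower (median -0.09), and 5 were called without replicate 2 of the intact plants at 72 h. These 4 comparisons share the intact libraries.

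CYCB1-1 (AT4G37490), a B-type cyclin widely used to mark cells in G2 and mitosis, shows the pattern. Its level at 48 and 72 h was 14.2, 16.5, 6.88 and 9.31 in the 4 grafted top libraries, 3.88, 6.23, 6.31 and 8.34 in grafted bottoms, 16.3, 16.8, 21.6 and 20.7 in separated tops, 0.485, 0.405, 0.0809 and 0.162 in separated bottoms and 0.324, 0.243, 0.567 and 0.0809 in intact plants. The grafted bottoms overlapped neither the separated bottoms nor the intact plants, and the last 2 groups overlapped each other. The log2 difference from intact was 3.23 (SE 0.18, limma adjusted p = 9.1e-21) in grafted tops, 2.44 (SE 0.18, limma adjusted p = 2.7e-16) in grafted bottoms and 3.93 (SE 0.18, limma adjusted p = 2.8e-24) in separated tops. In separated bottoms it was -0.02 and not called. CDKB1-1 (AT3G54180), the kinase of the G2-to-M transition that pairs with A2-type cyclins, had 11, 10.8, 12.5 and 14.2 in grafted bottoms, against 0.728, 1.62, 0.243 and 0.647 in separated bottoms and 2.35, 3.08, 3.16 and 1.05 in intact plants. The separated bottoms lay below 3 of the 4 intact libraries and overlapped the last, with a log2 difference of -0.91 (SE 0.23, limma adjusted p = 8.4e-04). CDKB1-1 and CDKB1-2 (AT2G38620) are close copies, as are CDKB2-1 (AT1G76540) and CDKB2-2 (AT1G20930), so how reads were split within each pair is uncertain.

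Rises of at least 2-fold at 48 and 72 h covered every B-type cyclin. In grafted bottoms the smallest log2 difference from intact among them was 2.20 for CYCB2-1 (AT2G17620). The largest was 3.36 for CYCB1-2 (AT5G06150), and both are B-type cyclins of the G2-to-M phase. On the same log2 scale CYCB1-3 (AT3G11520) rose by 3.26, CYCB1-4 (AT2G26760) by 3.01 and CYCB2-2 (AT4G35620) by 2.94. CYCB2-3 (AT1G20610) rose by 2.78, CYCB2-4 (AT1G76310) by 2.92 and CYCB3-1 (AT1G16330), the only B3-type cyclin of the set, by 2.33. Among the kinases, the log2 differences were 1.99 for CDKB1-1, 2.13 for CDKB1-2, 2.89 for CDKB2-1 and 2.54 for CDKB2-2.

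Over 120 to 240 h the rise was smaller in size, and it held for the class as a mean over the window. By 240 h the mitotic sum had fallen to 37.5 and 33.4 in grafted tops, 57.7 and 33.3 in grafted bottoms and 36.6 and 21.4 in separated tops. Intact plants had 20.2 and 19.7 at that time, and few mitotic members were called there, as given above. In grafted tops 26 of 39 members were called higher and 5 lower (30.6% and 24.7% of all genes), in grafted bottoms 27 of 39 members were called higher and 5 lower (25.4% and 28.2%), in separated tops 28 of 39 members were called higher and 3 lower (44.7% and 26.7%), and in separated bottoms 5 of 39 members were called higher and 15 lower (32.4% and 31.2%). All 13 mitotic members were among those higher in grafted tops (median 1.48), grafted bottoms (1.34) and separated tops (2.08), and in separated bottoms 2 were higher and 3 lower (median 0.11). Those 5 calls were 3 without replicate 2 of the separated bottoms at 168 h or replicate 1 at 240 h or when only the groups of the contrast were fitted, and 2 with a pseudocount of 4. The share of all called genes that was higher depends on the scaling here: 55.3% in grafted tops, 47.4% in grafted bottoms and 62.6% in separated tops, but 43.5%, 37.2% and 51.5% after quantile scaling, and 57.6% in grafted bottoms after median-of-ratios scaling.

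Over 6 to 24 h, a window that holds the intact 12 h peak, 24 of 39 members were called higher and 9 lower in grafted tops (31.7% and 30.8% of all genes). The counts were 6 and 12 in grafted bottoms (20.4% and 28.4%), 23 and 9 in separated tops (32.0% and 30.8%), and 4 and 25 in separated bottoms (24.3% and 30.4%). Of the 13 mitotic members, 10 were higher in grafted tops and 10 in separated tops, whereas 8 were lower in separated bottoms and 2 were higher and 1 lower in grafted bottoms. Without replicate 2 of the intact plants at 6 h, 5 were called in grafted bottoms, and the 8 of separated bottoms were 5 when only the groups of the contrast were fitted.

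Markers of other cell types moved with some of these rises. The 9 root meristem and primordium genes (PLT1, PLT2, PLT3, WOX5, WOX11, BBM, SCR, LBD16 and LBD29) summed to 179.8 and 136 at 24 h in grafted tops, 136 and 103 in grafted bottoms, 188 and 196 in separated tops and 122 and 91.3 in separated bottoms, against 88.6 and 78.2 in intact plants, so every cut library lay above both intact ones at that time. At 48 and 72 h it was 240.0 to 312 (median 249) in grafted tops, 122 to 143 (median 129) in grafted bottoms, 322 to 459 (median 349) in separated tops, 84.3 to 121 (median 109) in separated bottoms and 73.6 to 128 (median 83.3) in intact plants. A narrower sum of 7 genes, PLT1, PLT2, WOX5 and BBM of that list and EXP7, COBL9 and RHD6 of root hairs, was put together after values had been seen. Its contrast between groups is therefore not a test. At 72 h the narrower sum was 16 and 22.6 in grafted tops and 134 and 126 in separated tops. It was 0 and 0.0809 in grafted bottoms, 0 and 0 in separated bottoms and 0 and 0 in intact plants. The 3 root hair genes alone summed to 111 and 92.3 in separated tops at 72 h. At 24 h this narrower sum was 0 and 0 in grafted tops and 0.0809 and 0 in separated tops. In grafted bottoms at 48 and 72 h, 6 of these 7 genes were at 0 in all 4 libraries and WOX5 reached 0.0809, while the sum of all 9 genes lay above that of separated bottoms there. The 4 cambium genes (WOX4, PXY, ANT and HB8) summed to a median of 536 in grafted tops, 408 in grafted bottoms, 375 in separated tops, 13.6 in separated bottoms and 237 in intact plants at 48 and 72 h. The part of these cells in the changes of the members was not tested.

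The promoters of the mitotic members, which moved together, were read for the MSA core, AACGG, on both strands of the 300 bases before each annotated gene start (RefSeq, TAIR10.1). It stood in 8 of 13 mitotic promoters (61.5%) and at least 2 times in 6 (46.2%), against 23.5% and 4.5% of 26709 promoters of genes in the table. The share was 57.1% for the A-type cyclins, 10.0% for the D-type cyclins and 55.6% for the inhibitors. The E2F motif of S-phase genes, TTTCCCGC or TTTGGCGC on either strand, stood in 0 of 13 mitotic promoters and in 42.9% of the 21 replication genes below, against 1.1% of all promoters. Shown first are 3 B-type cyclins whose promoters hold the core 3 times, with the capitals marking it (CCGTT where it lies on the other strand). CYCB1-1 lies at chr4:17624309-17624608 (minus strand), CYCB2-2 at chr4:16901296-16901595 (plus strand) and CYCB2-3 at chr1:7137829-7138128 (minus strand).

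These are the 300 bases 5′ to 3′ along each gene.
CYCB1-1: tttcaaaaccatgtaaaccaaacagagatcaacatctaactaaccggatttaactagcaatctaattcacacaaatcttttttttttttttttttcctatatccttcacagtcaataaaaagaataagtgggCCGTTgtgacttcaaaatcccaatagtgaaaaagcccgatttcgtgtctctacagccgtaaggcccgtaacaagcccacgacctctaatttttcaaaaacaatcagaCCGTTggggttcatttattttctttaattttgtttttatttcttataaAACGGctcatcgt
CYCB2-2: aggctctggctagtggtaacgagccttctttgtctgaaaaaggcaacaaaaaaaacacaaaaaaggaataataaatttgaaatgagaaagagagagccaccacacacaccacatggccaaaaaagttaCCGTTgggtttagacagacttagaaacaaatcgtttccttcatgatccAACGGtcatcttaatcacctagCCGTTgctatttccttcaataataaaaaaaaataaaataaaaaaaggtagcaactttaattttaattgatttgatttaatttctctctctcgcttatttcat
CYCB2-3: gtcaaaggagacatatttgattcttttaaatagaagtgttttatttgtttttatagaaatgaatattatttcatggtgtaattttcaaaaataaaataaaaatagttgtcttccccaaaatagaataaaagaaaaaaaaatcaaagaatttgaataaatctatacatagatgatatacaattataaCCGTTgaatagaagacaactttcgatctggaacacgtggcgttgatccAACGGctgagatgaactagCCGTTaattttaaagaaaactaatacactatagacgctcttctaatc

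In CYCB2-2 and CYCB2-3, and in CYCB2-1 and CYCB1-3, the 3 cores follow in the order other, same, other strand. KRP1 (AT2G23430), at chr2:9978091-9978390 (minus strand), an inhibitor that took the opposite course, is shown because its window holds 6. A match is a run of letters and not a shown binding site, and the reference build differs in name from the TAIR10 that the submitters' processing notes give.

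In this window the capitals again mark the core.
KRP1: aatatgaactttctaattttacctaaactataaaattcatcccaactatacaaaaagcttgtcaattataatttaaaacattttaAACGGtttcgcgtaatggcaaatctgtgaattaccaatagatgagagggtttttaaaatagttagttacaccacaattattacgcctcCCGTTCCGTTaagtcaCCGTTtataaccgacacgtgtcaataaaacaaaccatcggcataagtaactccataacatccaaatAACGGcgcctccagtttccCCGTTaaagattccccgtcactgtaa

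The bottoms differed by whether they had been joined. Against separated bottoms, grafted bottoms had 19 of 39 members called higher and 4 lower over 6 to 24 h (17.5% and 17.1% of all genes), 29 and 4 at 48 and 72 h (30.0% and 30.5%), and 29 and 3 over 120 to 240 h (35.6% and 34.6%). The mitotic members counted 10, 13 and 12 of 13 higher in these windows and 0 lower, with medians of 0.55, 2.49 and 1.23 beside 0.00, 0.00 and 0.01 over all genes. Their log2 differences at 48 and 72 h ran from 1.78 for CDKB2-1 to 3.55 for CYCB1-4. CYCB1-4, a B-type cyclin, had 24.5, 30.0, 21.5 and 24.6 in grafted bottoms, against 1.21, 2.19, 0.485 and 1.29 in separated bottoms. Every grafted library lay above every separated one, and the difference was 3.55 (SE 0.23, limma adjusted p = 3.9e-18). Of the late calls, CYCB2-1 (0.46) and CYCB3-1 (0.46) changed sign after quantile scaling, to -0.02 and -0.25. CYCB2-1 also lost its call without replicate 2 of the grafted bottoms at 168 h or replicate 1 of the separated bottoms at 240 h (0.37 in each case), and CYCB3-1 without replicate 1 of the grafted bottoms at 240 h (0.28) or replicate 2 of the separated bottoms at 120 h (0.37) or 240 h (0.40). The early count of 10 was 4 after quantile scaling, and 6 without replicate 1 of the separated bottoms at 12 h or replicate 1 of the grafted bottoms at 24 h.

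**Figure D2:**
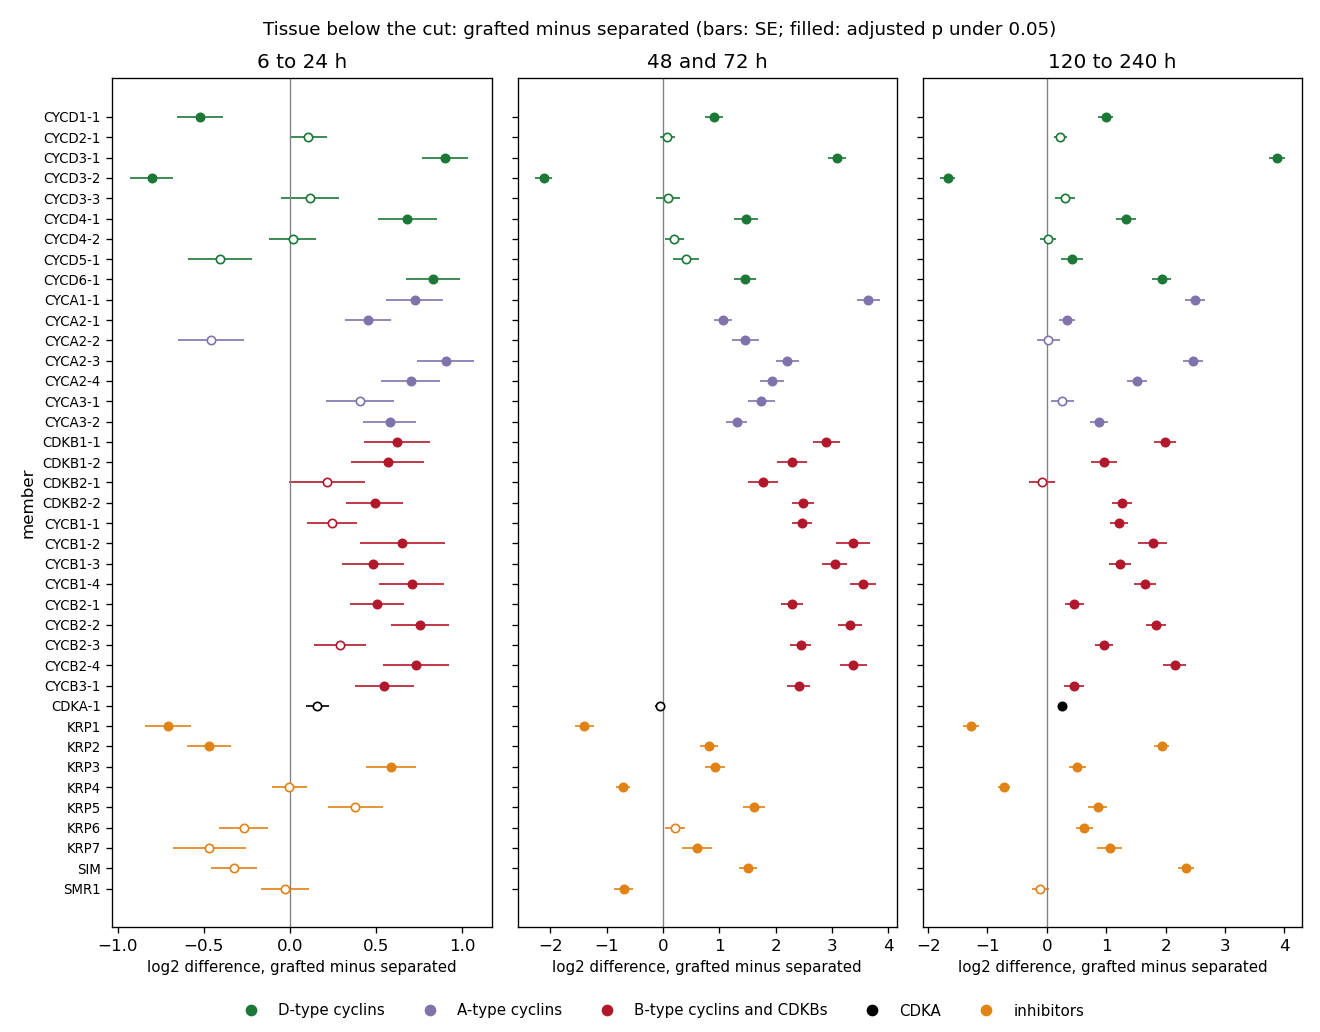
Log2 difference, grafted bottoms minus separated bottoms, of the 39 members tested in 3 windows; points are limma estimates, bars 1 SE, filled points an adjusted p under 0.05, and colours the classes. At 48 and 72 h all 13 mitotic members lie right of 0, CYCD3-1 at 3.09, and CYCD3-2 at -2.12 and KRP1 at -1.40 lie left.

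CDKB2-1 and CYCB3-1 stood apart from their class in late separated bottoms. Their calls against intact had begun earlier: CDKB2-1 was called higher at 5 times, first at 24 h, and CYCB3-1 at 3 times, first at 12 h. CDKB2-1, a kinase of the G2 and M phases, had 18.9 and 3.8 at 120 h, 14.7 and 13 at 168 h and 20.6 and 22.3 at 240 h in separated bottoms, against 2.19 and 3.24, 4.21 and 1.94 and 2.91 and 3.96 in intact plants at those times. All separated bottom libraries lay above the intact range but replicate 2 at 120 h, which was far from replicate 1. The log2 difference from intact was 1.90 (SE 0.22, limma adjusted p = 1.8e-10) over 120 to 240 h, and between grafted and separated bottoms it was -0.08 and not called. CYCB3-1 was higher than intact by 1.18 (SE 0.17, limma adjusted p = 4.7e-08). The other 11 mitotic members in that window lay between -0.65 and 0.44, with 3 called lower. The gene that overlaps CDKB2-1 by 44 bases on the other strand, AT1G76530, reached 4.53 at most in separated bottoms. The sum of the 3 stomatal lineage genes SPCH, MUTE and FAMA was also higher in separated bottoms over 120 to 240 h. Its median was 4.61 in grafted bottoms, 20.2 in separated bottoms and 5.54 in intact plants. In separated bottoms it was already 17.2 and 23.3 at 72 h. At 120 h it was 18.5 and 17.7 there, in the libraries where CDKB2-1 was 18.9 and 3.8. The part of these 3 genes in the levels of CDKB2-1 and CYCB3-1 was not tested.

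Above the cut, joining went with no called difference at first and with lower mitotic levels later. Against separated tops, grafted tops had 0 of 39 members called by limma over 6 to 24 h, where 0.0337% of all genes were higher and 0.313% lower, and 2 members had an unadjusted p under 0.05. At 48 and 72 h 1 member was higher and 5 were lower (8.29% and 14.3% of all genes), and over 120 to 240 h 3 were higher and 19 lower (19.5% and 29.8%). The middle count of 6 was 3 without replicate 2 of the separated tops at 48 h or replicate 2 of the grafted tops at 72 h, and 14 with a pseudocount of 4 or when only the groups of the contrast were fitted. Of the mitotic members 3 were lower at 48 and 72 h, but 1 with a pseudocount of 0.25, 7 with 4 and 9 when only the groups of the contrast were fitted. The 2 times of this window differed. The mitotic sums overlapped at 48 h, with 390.1 and 391 in grafted tops and 363 and 413 in separated tops. At 72 h they did not, with 196 and 194 in grafted tops and 393 and 356 in separated tops. Of all called genes at 48 and 72 h 36.8% were higher, but 55.9% after median-of-ratios scaling. In the late window 11 of 13 mitotic members were lower in grafted tops (median -0.61 beside -0.08 over all genes), and the 2 not called were CDKB1-1 (-0.34) and CDKB2-1 (-0.35). That count of 11 was 7 without replicate 1 of the separated tops at 168 h and 6 without replicate 1 at 240 h. CYCB1-1 had 8.25 and 6.07 in grafted tops at 120 h, against 24.8 and 18.8 in separated tops, with a late log2 difference of -0.77 (SE 0.14, limma adjusted p = 1.4e-05). At 240 h it was 1.29 and 2.02 in grafted tops and 1.38 and 1.38 in separated tops, and the groups overlapped. The late difference stood beside root markers: at 120 h the sum of the 9 root meristem genes was 123 and 109 in grafted tops and 317 and 271 in separated tops. The narrower sum, whose genes were picked after values had been seen, was 25.9 and 17.2 in grafted tops and 129.9 and 117 in separated tops.

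Between the top and bottom of grafted plants fewer members were called in each later window, as were fewer of all genes: 82.1%, 43.6% and 20.5% of the members and 64.8%, 47.1% and 23.6% of all genes. Grafted tops had 28 of 39 members higher and 4 lower than grafted bottoms over 6 to 24 h (37.8% and 27.0% of all genes), 15 and 2 at 48 and 72 h (27.6% and 19.5%), and 5 and 3 over 120 to 240 h (12.4% and 11.2%). Mitotic members called higher in the tops by limma were 11, 3 and 0 of 13 in these windows. Of all 39 members 12 had an unadjusted p under 0.05 late, and leaving out replicate 1 of the grafted bottoms at 168 h or at 240 h gave 1 mitotic call. The middle count of 17 members was 11 without replicate 1 of the grafted bottoms at 48 h. In separated plants most members differed in every window: 28 higher and 6 lower in tops than in bottoms over 6 to 24 h (40.4% and 31.6%), 32 and 5 at 48 and 72 h (47.2% and 29.4%), and 33 and 4 over 120 to 240 h (49.4% and 30.2%), with mitotic medians of 1.09, 3.80 and 2.03.

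The difference of these differences (top minus bottom in grafted, minus the same in separated plants) was called for 5 members above 0 and 6 below over 6 to 24 h (10.4% and 11.6% of all genes), 4 and 28 at 48 and 72 h (23.1% and 32.3%), and 4 and 30 over 120 to 240 h (28.0% and 41.6%). The early count of 11 was 7 without replicate 1 of the grafted bottoms at 6 h, of the grafted tops at 12 h or of the grafted tops at 24 h. All genes moved as well: the median of all genes was 0.26 at 48 and 72 h and 0.25 late for separated tops minus separated bottoms, and 0.04 and 0.02 after quantile scaling. It was 0.13 and 0.17 for separated tops minus intact, and 0.00 and 0.02 after quantile scaling. It was -0.12 and -0.18 for the difference of differences, and 0.04 and 0.02 after quantile scaling. The share of called genes above 0 in the late window was 62.0% for separated tops minus separated bottoms and 40.3% for the difference of differences, and 51.3% and 50.4% after quantile scaling.

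The A-type cyclins rose with the mitotic members, to a smaller extent and less evenly. All 7 were called higher than intact at 48 and 72 h in grafted tops (median 1.61), grafted bottoms (1.10) and separated tops (1.92). Of all genes 31.5%, 20.3% and 40.2% were higher there. In separated bottoms 1 A-type cyclin was higher and 5 were lower (-0.86), beside 27.8% and 28.5% of all genes. CYCA1-1 (AT1G44110), known from mitosis, had 20.3, 18.9, 21.9 and 23.1 in grafted bottoms, against 1.05, 1.13, 0.485 and 0.485 in separated bottoms and 4.45, 5.75, 3.16 and 1.94 in intact plants. None of the 3 groups overlapped: grafted bottoms were highest and separated bottoms lowest, with 3.64 (SE 0.20, limma adjusted p = 2.4e-20) between the bottoms. CYCA2-3 (AT1G15570), which with CDKB1-1 holds cells in division and out of endoreduplication, was lower in separated bottoms in all 3 windows, with log2 differences of -0.95, -1.11 and -1.27 from intact. CYCA2-2 (AT5G11300) was the 1 A-type cyclin higher there: at 24 h it was 8.09 and 7.28 in separated bottoms and 1.05 and 1.46 in intact plants, and over 6 to 24 h the difference was 1.49 (SE 0.19, limma adjusted p = 4.9e-09).

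CYCA2-4 (AT1G80370) had 6.55 and 5.91 in grafted tops at 120 h, against 31 and 26 in separated tops. Both separated libraries of that time lay above every other library of the series, and these are the libraries whose root sums are given above. CYCA2-1 (AT5G25380) was low throughout (highest level 5.83), and its late differences in grafted tops from intact (0.43) and in grafted from separated bottoms (0.34) changed sign after quantile scaling, to -0.05 and -0.31, and the second lost its call without replicate 1 of the grafted bottoms at 120 h (0.23) or 240 h (0.31) or replicate 1 of the separated bottoms at 168 h (0.26). CYCA3-1 (AT5G43080) and CYCA3-2 (AT1G47210), S-phase cyclins, were 1.75 and 1.31 higher on the log2 scale in grafted than in separated bottoms at 48 and 72 h, both called.

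The D-type cyclins did not move as a class. At 48 and 72 h 3 of 9 were higher and 1 lower in grafted tops (31.5% and 26.8% of all genes), 2 and 3 in grafted bottoms (20.3% and 26.5%), 4 and 1 in separated tops (40.2% and 27.1%) and 1 and 6 in separated bottoms (27.8% and 28.5%), all against intact plants, with medians of 0.12, -0.22, 0.32 and -0.53. The shares called higher in the first 3 groups were near those of all genes. The D3-type cyclins, which answer to cytokinin and keep cambium and lateral organs dividing, split 3 ways.

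CYCD3-1 (AT4G34160) was high in every cut group but the separated bottoms. It had 58.7, 66.3, 51.4 and 64.9 at 48 and 72 h in grafted tops, 53.7, 50.4, 67.4 and 57.3 in grafted bottoms, 60.7, 59.6, 95 and 92.7 in separated tops, 7.28, 7.53, 4.21 and 4.86 in separated bottoms and 29.4, 31.1, 27.8 and 19.5 in intact plants. The intact plants lay between, with no overlap on either side. Over 120 to 240 h it ran 90.6 to 118 (median 102) in grafted tops, 68.9 to 95.9 (median 73.2) in grafted bottoms, 41 to 101 (median 68.6) in separated tops, 1.62 to 7.12 (median 4.49) in separated bottoms and 23.5 to 41.4 (median 33) in intact plants. The difference between grafted and separated bottoms was 0.90 (SE 0.14, limma adjusted p = 5.5e-07) over 6 to 24 h, 3.09 (SE 0.17, limma adjusted p = 5.6e-21) at 48 and 72 h and 3.87 (SE 0.14, limma adjusted p = 7.2e-29) over 120 to 240 h. It grew over the windows while the mitotic median was highest at 48 and 72 h. At 6 h both kinds of bottom were low, with 6.15 and 2.75 in grafted bottoms, 2.19 and 2.67 in separated bottoms and 16.6 and 23 in intact plants. Over 120 to 240 h CYCD3-1 was also higher in grafted than in separated tops, with a log2 difference of 0.67 (SE 0.14, limma adjusted p = 5.0e-05), the opposite direction to the mitotic members, and in separated tops it was 95 and 92.7 at 72 h, 41 and 44.8 at 120 h and 80.3 and 67.9 at 168 h, a dip in both replicates. The 4 cambium genes dipped with it in separated tops: their sum was 365 and 333 at 72 h, 153 and 199 at 120 h and 357 and 406 at 168 h. Over 120 to 240 h its median was 649 in grafted tops and 381 in separated tops. In grafted plants the courses differed. CYCD3-1 had its highest mean at 240 h, 110 in tops and 82.4 in bottoms. The mean cambium sum was highest at 120 h, 767 in tops and 565 in bottoms, and was 498 and 441 at 240 h. The part of the cambium genes in the level of CYCD3-1 was not tested. On the same strand CYCD3-1 shares 40 bases with AT4G34150, whose level was 55.0 to 647 in grafted bottoms and 44.8 to 428 in separated bottoms. Its promoter window, at chr4:16357121-16357420 (plus strand), holds the MSA core 1 time and no E2F motif and is shown for comparison with the mitotic promoters.

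The capitals mark the core in this D-type cyclin.
CYCD3-1: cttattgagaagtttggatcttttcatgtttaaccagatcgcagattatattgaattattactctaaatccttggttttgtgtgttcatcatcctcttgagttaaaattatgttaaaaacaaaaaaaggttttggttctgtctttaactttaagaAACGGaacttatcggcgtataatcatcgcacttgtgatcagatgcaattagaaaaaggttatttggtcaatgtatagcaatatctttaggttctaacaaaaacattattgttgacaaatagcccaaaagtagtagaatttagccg

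**Figure D3:**
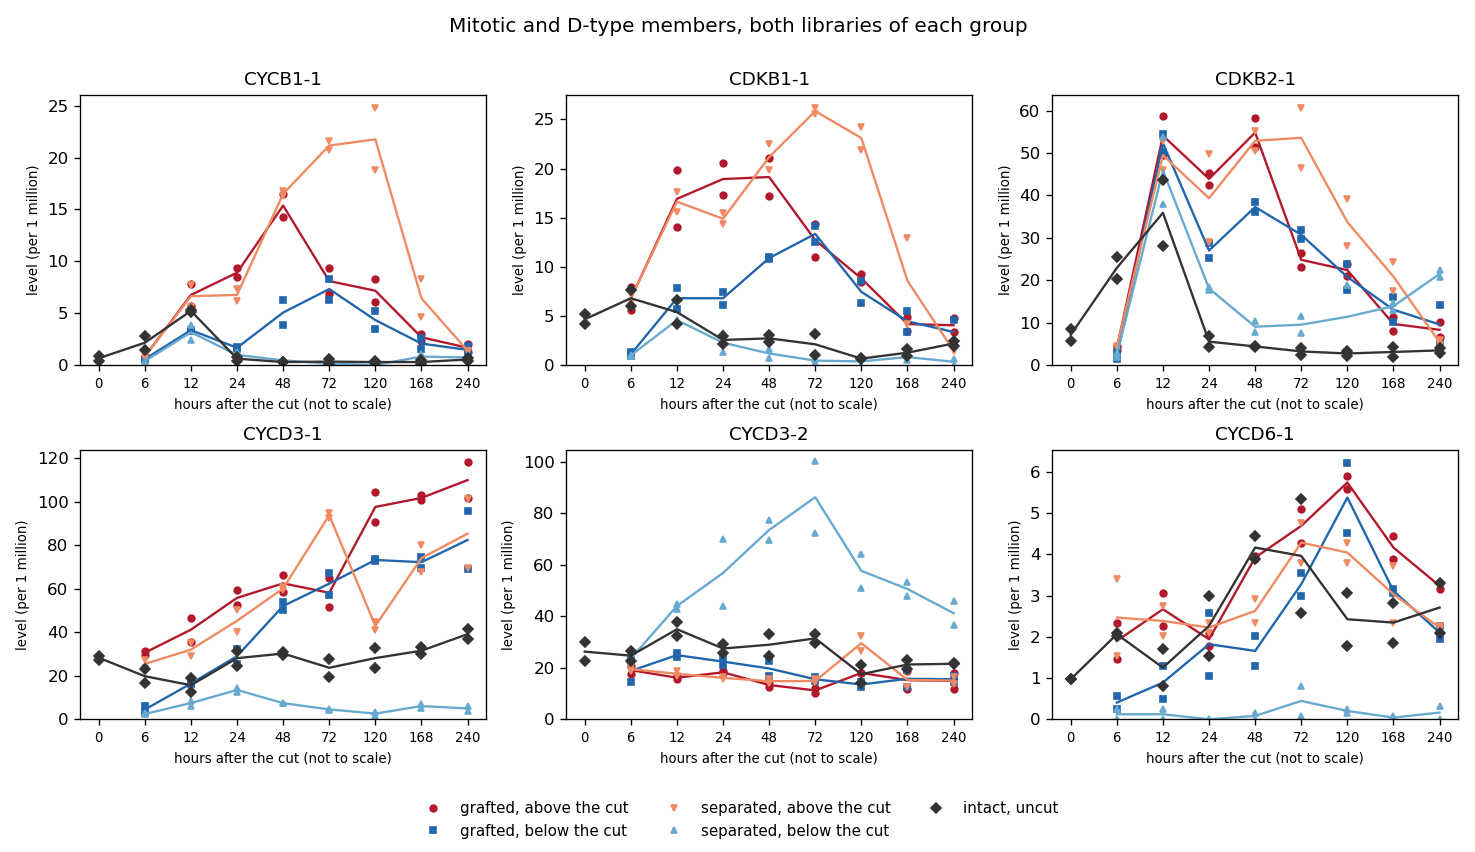
Level (median library scaled to 1000000) of 3 mitotic and 3 D-type members in both libraries of each group, against hours after the cut. Lines join the means. From 48 h CYCB1-1 and CDKB1-1 are low in separated bottoms, CDKB2-1 reaches 20.6 and 22.3 there at 240 h, CYCD3-1 and CYCD6-1 are lowest there, and CYCD3-2 is highest there.

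CYCD3-2 (AT5G67260) took the reverse course. At 48 and 72 h it had 22.7, 16.8, 14.8 and 16.3 in grafted bottoms, against 77.5, 69.7, 72.3 and 100.3 in separated bottoms and 24.8, 33.2, 29.7 and 33.2 in intact plants. The separated bottoms were highest and the grafted bottoms lowest, with no overlap. The differences were -2.12 (SE 0.16, limma adjusted p = 3.1e-16) between the bottoms and 1.37 (SE 0.16, limma adjusted p = 1.9e-10) between separated bottoms and intact plants. In grafted tops it was also below intact, -1.23 on the log2 scale. CYCD3-3 (AT3G50070) moved little: at 48 and 72 h its differences from intact were 0.06, 0.26, 0.15 and 0.17 in grafted tops, grafted bottoms, separated tops and separated bottoms, none called.

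CYCD6-1 (AT4G03270), known from formative divisions in roots, was 1.94 to 6.23 (median 3.12) in grafted bottoms over 120 to 240 h, against 0 to 0.324 (median 0.121) in separated bottoms and 1.78 to 3.32 (median 2.47) in intact plants. Separated bottoms were near 0 and lay below both other groups in every library, with a log2 difference from intact of -1.61 (SE 0.16, limma adjusted p = 1.8e-12), which rests on few reads. On the other strand it is overlapped over 847 bases by AT4G03260, whose level was 182 to 454 in separated bottoms and 140 to 357 in intact plants. CYCD4-1 (AT5G65420), a D-type cyclin of root and stomatal lineages, rose like the mitotic members, by 1.46 in grafted tops, 0.88 in grafted bottoms and 1.73 in separated tops at 48 and 72 h, and was lower in separated bottoms (-0.59, and -0.52 and not called without replicate 2 of the intact plants at 48 h). Its close relative CYCD4-2 (AT5G10440) was called in 1 of these 4 comparisons, in separated bottoms (-0.53).

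CYCD1-1 (AT1G70210) was highest at the start in intact plants, 87.1 and 89.3 at 0 h and 44.4 and 46.7 at 6 h, against 11.8 and 18.3 at 12 h. At 6 h the cut groups had 8.17 and 7.53 in grafted tops, 6.07 and 5.67 in grafted bottoms, 7.04 and 6.88 in separated tops and 7.36 and 8.82 in separated bottoms, all below the intact plants of that time. Later it was lower in separated bottoms (-1.12 at 48 and 72 h from intact, called). CYCD5-1 (AT4G37630) stood out in separated tops at 120 h, with 9.14 and 8.34 in grafted tops, 31.7 and 19.7 in separated tops and 4.53 and 1.94 in intact plants. CYCD2-1 (AT2G22490), a sugar-responsive D-type cyclin, was higher in tops than in bottoms at 48 and 72 h, with 0.75 in grafted and 1.15 in separated plants.

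CDKA-1 (AT3G48750), the main CDK of the whole cycle and the partner of D-type cyclins, was present throughout: its level lay between 30.0 and 71.3 in all 82 libraries. It was called lower than intact over 6 to 24 h in all 4 cut groups, with -0.20 in grafted tops, -0.45 in grafted bottoms, -0.19 in separated tops and -0.60 in separated bottoms. The tops lost that call without replicate 1 of the intact plants at 6 h (-0.15 in both), and the grafted tops also without their replicate 2 at 12 h (-0.16). Between grafted and separated bottoms it was -0.06 at 48 and 72 h, not called. In the length-normalised table its median was 44.7, against 15.1 for CDKB2-1, the highest mitotic member, and 0.986 for CYCB1-1.

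The inhibitors had no common course, and KRP1 and SIM set the separated bottoms apart. In the window of 48 and 72 h 3 of 9 were higher and 3 lower in grafted tops (31.5% and 26.8% of all genes), 2 and 4 in grafted bottoms (20.3% and 26.5%), 3 and 5 in separated tops (40.2% and 27.1%), and 2 and 4 in separated bottoms (27.8% and 28.5%), against intact plants. The counts in grafted tops, and that of higher members in grafted bottoms, are near the shares of all genes. KRP1, a KIP-related inhibitor, was high there. From 48 to 240 h it ran from 7.93 to 19.1 in the 10 grafted bottom libraries, against 25.2 to 46.3 in separated bottoms and 6.23 to 13.3 in intact plants. No separated bottom library of these times overlapped the other 2 groups, which overlapped each other. The difference between grafted and separated bottoms was -0.71 (SE 0.14, limma adjusted p = 4.2e-05) over 6 to 24 h, -1.40 (SE 0.17, limma adjusted p = 5.2e-10) at 48 and 72 h and -1.28 (SE 0.14, limma adjusted p = 9.7e-12) over 120 to 240 h. In the tops it was low early: at 24 h 2.02 and 2.43 in grafted tops and 2.1 and 2.27 in separated tops, against 9.31 and 6.64 in intact plants. In intact plants it was 1.05 higher on the log2 scale over 120 to 240 h than at 0 and 24 h.

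SIM (AT5G04470), an inhibitor known for endoreduplication in trichomes, became low in separated bottoms. Grafted bottoms had 8.98 and 8.5 at 12 h, 15.6 and 18.2 at 48 h and 9.63 and 13.5 at 240 h. Separated bottoms had 20.9 and 23.6, 5.18 and 4.13 and 0.89 and 1.46 at these times, against 21.7 and 18.6, 21.9 and 13.3 and 30.3 and 32 in intact plants. Over 120 to 240 h the grafted bottoms lay between the separated bottoms, which were lowest, and the intact plants, with no overlap. The log2 difference from intact was -0.94 (SE 0.13, limma adjusted p = 6.3e-08) for grafted and -3.28 (SE 0.13, limma adjusted p = 3.7e-26) for separated bottoms, and 2.35 (SE 0.13, limma adjusted p = 1.0e-20) between the bottoms. At 6 h SIM was low in all cut groups, with 3.4 and 3.56 in grafted tops, 5.91 and 8.5 in grafted bottoms, 5.18 and 3.16 in separated tops and 7.28 and 7.69 in separated bottoms, against 13.5 and 15.5 in intact plants. Over 6 to 24 h its difference from intact was -1.41, -0.84, -1.39 and -0.52 in the order just given, all called.

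**Figure D4:**
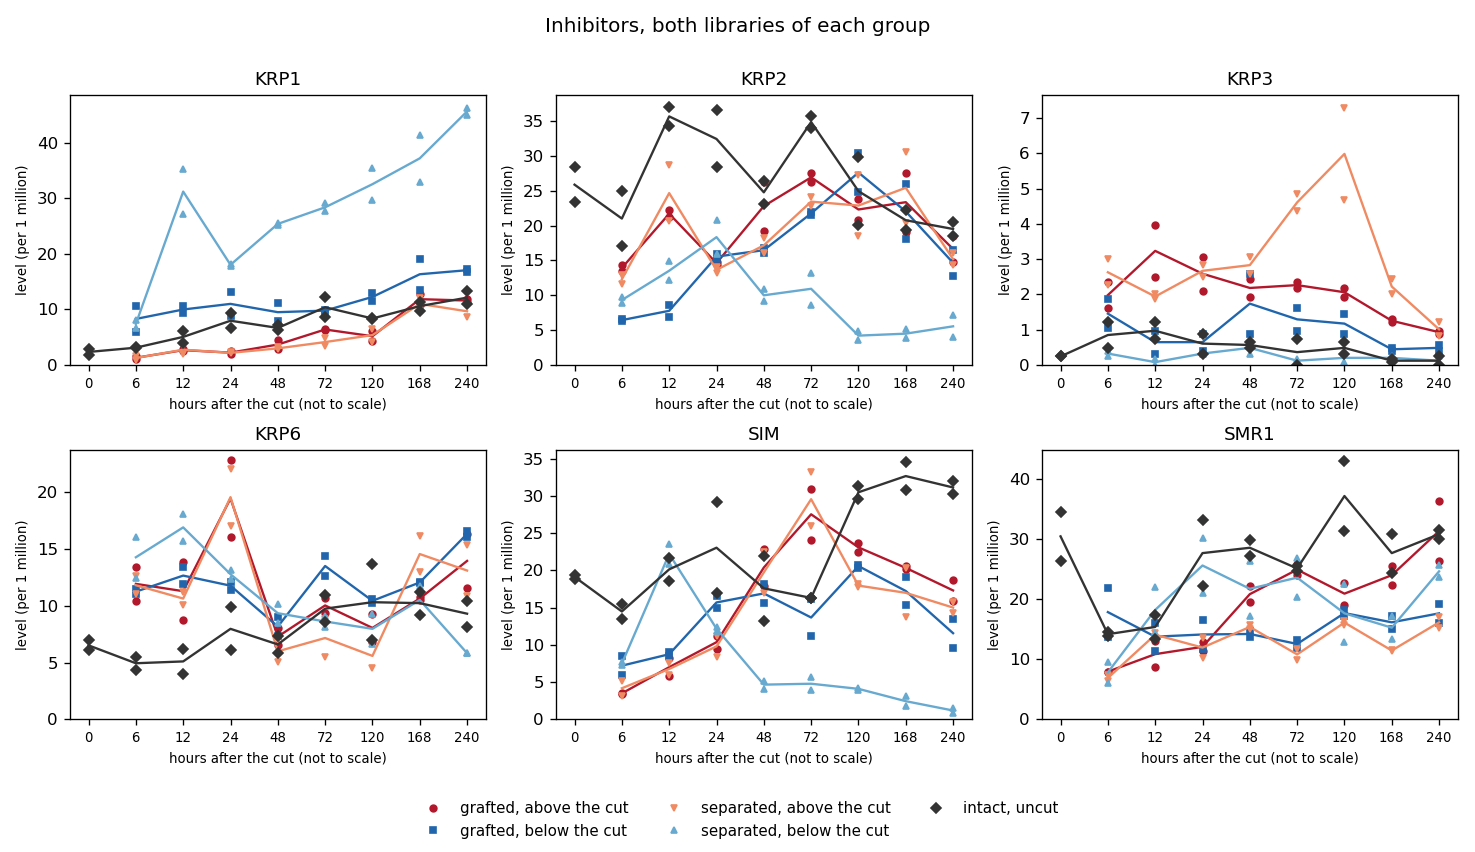
Level (median library scaled to 1000000) of 6 CDK inhibitors in both libraries of each group, against hours after the cut. Lines join the means. In separated bottoms KRP1 reaches 45.1 and 46.3 and SIM ends at 0.89 and 1.46 at 240 h, against 10.9 and 13.3 and 30.3 and 32 in intact plants; KRP3 is highest in separated tops at 120 h, with 7.28 and 4.69.

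SMR1 (AT3G10525), a relative of SIM with the same known role in leaves, parted the tops. Its level was 19.5, 22.2, 23.9 and 25.9 at 48 and 72 h in grafted tops, against 15.7, 15.1, 9.87 and 11.7 in separated tops and 29.9, 27.2, 25.5 and 24.8 in intact plants. Grafted tops lay above separated tops in every library and overlapped the intact plants, with 0.78 (SE 0.17, limma adjusted p = 5.5e-04) between the tops at 48 and 72 h and 0.75 (SE 0.14, limma adjusted p = 1.3e-05) over 120 to 240 h. The difference of differences of SMR1 at 48 and 72 h, 1.48, exceeded the 0.78 between the tops. In that window grafted bottoms thus lay below separated bottoms on the mean. KRP2 (AT3G50630), an auxin-repressed inhibitor of lateral root initiation, was below intact in separated bottoms in each window, with -1.07, -1.42 and -1.99. In grafted bottoms it was low at first, 6.55 and 6.31 at 6 h against 8.9 and 9.71 in separated bottoms and 17 and 25 in intact plants. Its difference between grafted and separated bottoms had opposite signs in the early (-0.47) and late (1.94) windows, both called.

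KRP3 (AT5G48820) and KRP5 (AT3G24810) were higher where the mitotic members were at 48 and 72 h, but parted from them at 6 h. Both were already called higher than intact at 6 h in grafted and separated tops, and KRP5 also in grafted bottoms. Most mitotic members were called lower in these groups at that time. KRP3, whose level was at most 1.21 in every intact library, was 1.17 higher on the log2 scale in grafted tops, 0.76 in grafted bottoms and 1.69 in separated tops at 48 and 72 h, and KRP5 1.78, 1.03 and 1.72, all called. In separated bottoms KRP3 was not called (-0.16) and KRP5 was lower (-0.58, and -0.35 and not called without replicate 2 of the intact plants at 72 h). KRP6 (AT3G19150) was higher in all 4 cut groups over 6 to 24 h, by 1.11 in grafted tops, 0.93 in grafted bottoms, 1.10 in separated tops and 1.20 in separated bottoms, and was called in none of them at 48 and 72 h. At 12 h it had 8.74 and 13.8, 11.9 and 13.4, 10.0 and 11.2 and 18.1 and 15.7 in these groups, against 3.96 and 6.23 in intact plants, and each cut library lay above both intact ones.

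KRP4 (AT2G32710) was lower in the tops over 6 to 24 h, -0.90 in grafted and -0.86 in separated ones, and not called in grafted (-0.02) or separated bottoms (-0.02). It shares 926 bases with AT2G32720 on the other strand, which reached 51.1 in grafted bottoms and 17.4 in separated bottoms, so its counts are uncertain if strand was not used. KRP7 (AT1G49620) was lower than intact over 6 to 24 h in grafted tops (-0.63, and -0.51 and not called without replicate 2 of the grafted tops or replicate 1 of the intact plants at 24 h), grafted bottoms (-1.69), separated tops (-1.09) and separated bottoms (-1.22), and over 120 to 240 h in separated bottoms alone of the 4 comparisons (-1.11).

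Across the 41 group means the classes differed in how far members followed each other. Pearson's r over 41 groups had a median of 0.943 (0.732 to 0.986, 78 pairs) within the mitotic members, 0.806 within the A-type cyclins, 0.279 within the D-type cyclins and -0.01 within the inhibitors. Between mitotic and A-type members the median was 0.811, between mitotic and D-type members 0.436, and between mitotic members and inhibitors -0.01, with a range of -0.68 to 0.83. These r describe group means that share libraries and normalisation.

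**Figure D5:**
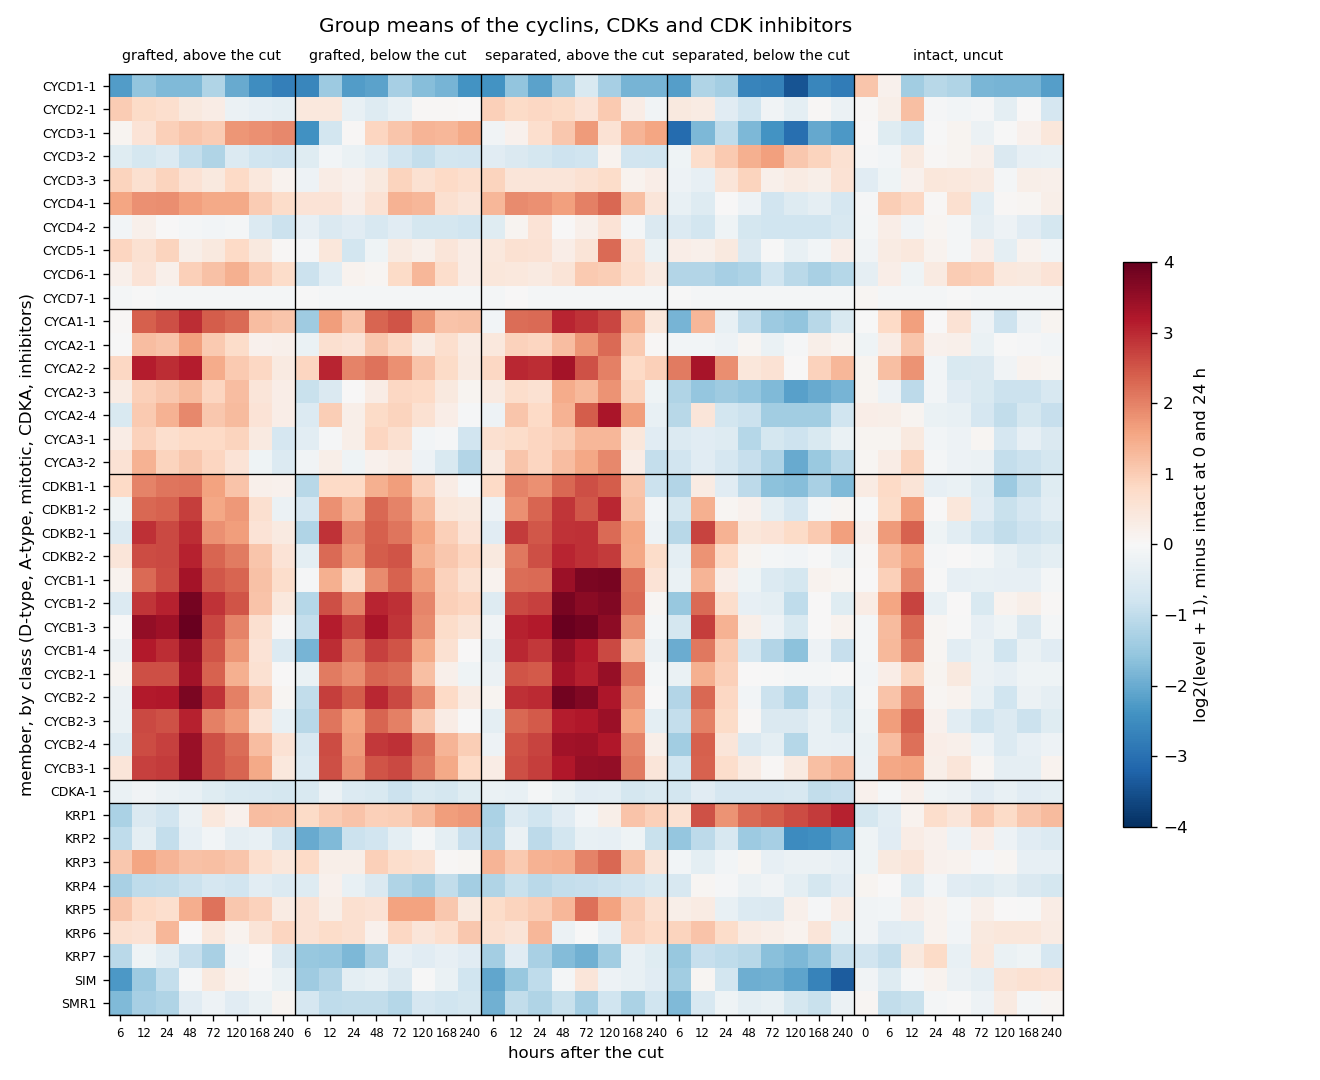
Group means of log2(level + 1) of the 40 genes, minus the mean of intact plants at 0 and 24 h (red higher, blue lower), by class down the page and by group and hours across. The mitotic rows are mostly red from 12 to 168 h in grafted tops, grafted bottoms and separated tops, at 12 and 24 h in separated bottoms, and at 6 and 12 h in intact plants.

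Outside the set, the genes most like CDKB2-1 over the 41 groups were AT5G23910 (r = 0.968), AT3G44050 (0.965), DRP5A (0.947), PLE (0.945) and AT1G04030 (0.939). For CYCD3-1 they were PG1 (0.955), REV (0.948), AT5G23100 (0.947), AT3G19370 (0.944) and AT1G69580 (0.943). For KRP1 they were RD21A (0.949), JMJ18 (0.937), SCPL7 (0.927), AT3G60690 (0.922) and HAM3 (0.918), and for SIM AT5G23460 (0.858), AT3G63210 (0.856), HB27 (0.851), EDA40 (0.848) and KIN10 (0.844).

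Other genes of the cycle were counted from lists of their roles, in a comparison where 30.0% of all genes were higher and 30.5% lower. Of 21 replication genes, 20 were higher and 0 lower in grafted than in separated bottoms at 48 and 72 h (median 1.96), among them MCM4 (2.77), MCM2 (2.72) and MCM5 (2.34) of the replicative helicase and CDT1A (2.67) of origin licensing. Of 16 genes of mitosis and cytokinesis, 14 were higher and 0 lower (median 2.52), among them MAD2 (3.43) and BUBR1 (2.91) of the spindle checkpoint, HIK (3.87), a kinesin of the cell plate, and KNOLLE (3.77), the syntaxin of cell plate fusion. Of 10 genes of the anaphase-promoting complex, endocycle and DNA damage response, 9 were higher and 0 lower, with OSD1 (2.48), CCS52B (3.06) and WEE1 (2.30). Of 9 G1-to-S regulators of the retinoblastoma and E2F kind, 4 were higher and 0 lower, with DEL1 (1.75), E2FC (0.87), E2FA (0.42) and DEL2 (0.63). Of 7 CDK-activating kinases and CKS subunits, 3 were higher and 2 lower, with CKS2 at 2.36 and CKS1 at -0.50. The shares of these last 9 and 7 genes were closer to those of all genes than were the shares of the first 3 lists.

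Replication genes and mitotic members parted at 6 h. In grafted tops 12 of 21 replication genes were higher than intact at 6 h and 0 lower, and in separated tops 11 and 0, beside 25.5% and 25.3% of all genes called higher, while 11 of 13 mitotic members were lower in each. In grafted bottoms 0 were higher and 17 lower, and in separated bottoms 0 and 21, beside 16.1% and 19.9% of all genes called lower. At 24 h 3 of 21 replication genes were higher in grafted bottoms, about the 15.7% of all genes, when all 13 mitotic members were, and at 72 h 20 were, beside 17.7%.

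In intact plants over 120 to 240 h, against 0 and 24 h, 4 of 39 members were higher and 17 lower, beside 19.4% and 21.3% of all genes. Of the mitotic members 0 were higher and 6 lower, with CDKB1-1 (-0.98) and CDKB2-1 (-0.84) furthest from 0. Those 6 calls were 3 with a pseudocount of 4 and 3 with the replicate number as a block. CYCD1-1 fell most (-1.99), and KRP1 rose most (1.05). SIM rose by 0.58, a call lost without replicate 2 at 24 h (0.39), and the calls of CYCD6-1 (0.46) and KRP6 (0.41) were each lost when 1 of several libraries was left out (any of 6 for CYCD6-1 and of 5 for KRP6).

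Over all 82 libraries the lowest and highest levels of the B1-type cyclins were CYCB1-1 0 to 24.8, CYCB1-2 0.0809 to 58.3, CYCB1-3 0 to 35 and CYCB1-4 0 to 50.2. Those of the B2- and B3-type cyclins were CYCB2-1 0 to 13.5, CYCB2-2 0 to 35.3, CYCB2-3 0.405 to 36.8, CYCB2-4 0 to 30.1 and CYCB3-1 0 to 21.4, and those of the CDKBs CDKB1-1 0 to 26.1, CDKB1-2 0 to 22.5, CDKB2-1 1.29 to 60.6 and CDKB2-2 1.78 to 38.1. All 13 fell below 1.78 or to that level in at least 1 library, so none was high throughout. Among the A-type cyclins the levels were CYCA1-1 0 to 34.6, CYCA2-1 0 to 5.83, CYCA2-2 0.0809 to 25.9, CYCA2-3 0 to 24.3, CYCA2-4 0 to 31, CYCA3-1 0 to 7.28 and CYCA3-2 0.89 to 39.98. For the D-type cyclins they were CYCD1-1 1.78 to 89.3, CYCD2-1 5.5 to 29.4, CYCD3-1 1.62 to 118 and CYCD3-2 10.4 to 100.3, and CYCD3-3 8.17 to 35.5, CYCD4-1 0 to 8.66, CYCD4-2 0 to 2.02, CYCD5-1 1.38 to 31.7 and CYCD6-1 0 to 6.23. The inhibitors spanned KRP1 0.971 to 46.3, KRP2 3.56 to 37, KRP3 0 to 7.28 and KRP4 9.39 to 37.6, and KRP5 1.13 to 15.5, KRP6 3.96 to 22.8, KRP7 0.162 to 10.9, SIM 0.89 to 34.5 and SMR1 6.07 to 43. KRP4 and SMR1 were the inhibitors that stayed highest in their lowest library. Per gene length, the medians over the libraries were highest for SIM (61.5), SMR1 (61.3) and CDKA-1 (44.7), and lowest, after CYCD7-1, for CYCB2-1 (0.379) and CYCA2-1 (0.404).

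Of the 40 genes, 12 overlap another annotated gene, 10 of them a gene of the table. The kit keeps strand, but the sources used here do not give whether counting used it, so values of genes that overlap on opposite strands are uncertain to that extent.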

How the data were processed

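RNA was sequenced from 82 libraries, prepared with a stranded mRNA kit and 15 PCR cycles, per the labels' protocols. The deposited values are normalised scores that the authors made per library and rounded to whole numbers, and a second deposited table is also divided by gene length. The tools cutadapt 1.8.1 and Bowtie2 and the build TAIR10 are listed in the submitters' processing notes. The sources used here give no gene counter, scaling method or strand setting. Depth was estimated from the step between low values. Libraries shared 7 sequencing lanes, and the lane of each is not given.

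All values were multiplied by 1 constant. Genes that reached a level of 1 in 2 libraries or more were fitted with limma 3.58.1 (R 4.3.3) on log2(level + 1), with 1 mean per group over all 41 groups, which share 1 estimate of the spread per gene (41 residual degrees of freedom). Contrasts average the differences within each time. Adjusted p-values are Benjamini-Hochberg over all tested genes, and the script was tested on simulated data. Sums, correlations and figures used pandas 2.3.3 and NumPy 2.4.6 under Python 3.11.15, and Matplotlib 3.10.9. Alternatives were other pseudocounts, filters and scalings, the length-normalised table, a replicate block, fits of the contrast's own groups and leaving out each library. All 40 genes could be named. Library values were given for a panel and for members at the ends of a comparison, up to 4 genes of each further list were named by smallest adjusted p, and 5 genes by highest r. The members, lists and panel were chosen with earlier results of these data known.

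The labels call the replicates independent and do not say that a number marks a shared batch. Deviations of same-numbered grafted tops and grafted bottoms from their group means correlated at 0.148 to 0.506 at all 8 times, so these 2 are paired by their values. The other pairs of groups fell to -0.063 to 0.064 at their lowest time. Each of them still exceeded 0.1 at 5 or 6 of the 8 times, and their highest values were 0.235 to 0.494. A batch shared at some times was thus not excluded for them. The main fit had no replicate block, and a block was used as an alternative.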

Additional observations from a re-analysis of the deposited data

Results flagged for a closer look

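In each window the grafted and the separated plants were set against each other in how far tops stood above bottoms, by 1 contrast of the same limma fit: the grafted difference (top minus bottom) less the separated one. It was called for 11 members (28.2%) over 6 to 24 h, 32 (82.1%) at 48 and 72 h and 34 (87.2%) over 120 to 240 h. Of all genes tested, 10.4%, 23.1% and 28.0% were called above 0 and 11.6%, 32.3% and 41.6% below it. More of all genes were thus called in each later window as well. Values below 0 mean that the top exceeded the bottom by less in grafted than in separated plants. Over 6 to 24 h the values furthest from 0 were -0.91 for CYCD6-1, -0.81 for CYCB2-4 and -0.71 for CYCB2-2 below it and 0.72 for KRP1, 0.81 for CYCD3-2 and 0.93 for KRP7 above it. At 48 and 72 h they were -3.92 for CYCA1-1, -3.87 for CYCB1-4 and -3.78 for CYCB2-2, and 1.48 for SMR1, 1.77 for KRP1 and 1.86 for CYCD3-2. Over 120 to 240 h they were -3.20 for CYCD3-1, -2.63 for CYCA2-3 and -2.62 for CYCB2-4, and 0.88 for KRP4, 1.39 for KRP1 and 1.42 for CYCD3-2. KRP1 and CYCD3-2 stood at the upper end in each of the 3 windows.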

How the results depend on the processing

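Of 723 called differences of members, the settings other than leaving out a library gave 6456 values, of which 6193 kept direction and call, 249 lost the call and 14 changed sign, all 14 after quantile scaling. Those 14 were CYCD5-1 at -0.015 for separated tops minus bottoms at 48 and 72 h and, over 120 to 240 h, CYCA2-1 at -0.052 for grafted tops minus intact, CYCD4-2 at -0.23 for separated tops minus intact and 0.073 for the difference of differences, CYCA2-1 at -0.31, CYCB2-1 at -0.023, CYCB3-1 at -0.25, CYCD5-1 at -0.18 and KRP3 at -0.079 for grafted minus separated bottoms, and CYCA2-2 at -0.35, CYCA3-1 at -0.0041, CYCD4-2 at -0.0058, KRP6 at -0.21 and KRP7 at -0.27 for separated tops minus bottoms. The cause was not tested. Leaving out 1 library gave 8458 values, with 471 calls lost and 0 changes of sign. Counts of members called moved over 1.5 times in 3 comparisons. For grafted tops minus bottoms at 48 and 72 h the count of 17 was 11 with a pseudocount of 0.25 and 10 after quantile scaling. For grafted minus separated tops at 48 and 72 h the count of 6 was 14 with a pseudocount of 4 and 14 when only the contrast's own groups were fitted. For the early difference of differences the count of 11 was 7 after quantile scaling. Mitotic counts moved over 1.5 times under settings other than leaving out a library in 8 comparisons. For grafted minus separated tops they were 1 with a pseudocount of 0.25, 7 with 4 and 9 with only the contrast's own groups at 48 and 72 h (3 as reported), and 7 with 0.25 late (11). For grafted tops minus bottoms at 48 and 72 h (3) they were 1 with 0.25, 6 with 4, 6 with only the contrast's own groups and 5 in the length-normalised table. For separated bottoms minus intact they were 5 with only the contrast's own groups early (8), and 2 with a pseudocount of 4 and 3 with only the contrast's own groups late (5). For grafted minus separated bottoms early (10) the count was 4 after quantile scaling, for the early difference of differences (2) it was 1 with 0.25 and 0 after quantile scaling, and for intact plants late against the start (6) it was 3 with 4. Counts of members called at least 2-fold moved over 1.5 times in 29 cases under these settings. Leaving out 1 library, the member counts over 6 to 24 h, at 48 and 72 h and over 120 to 240 h ran, in this order, in grafted tops minus intact 28 to 34, 28 to 30 and 29 to 31, in grafted bottoms minus intact 15 to 21, 29 to 31 and 30 to 33, in separated tops minus intact 29 to 33, 32 to 33 and 30 to 31, in separated bottoms minus intact 26 to 31, 19 to 22 and 18 to 23, in grafted minus separated tops 0 to 0, 3 to 6 and 16 to 24, in grafted minus separated bottoms 19 to 24, 32 to 33 and 29 to 33, in grafted tops minus bottoms 29 to 34, 11 to 15 and 8 to 9, in separated tops minus bottoms 33 to 35, 36 to 38 and 34 to 37, in the difference of differences 7 to 13, 31 to 33 and 33 to 37, and for intact plants late against the start 14 to 19. With the replicate number as a block, 7 of 723 calls were lost, no member count moved over 1.5 times (36, 18 and 8 for the paired grafted tops minus bottoms), and the 6 mitotic calls in intact plants late against the start were 3. Values of low genes rest on few reads, since a level of 1 stands for 5.78 to 22.0 reads.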
